A study of Homo sapiens with 4 samples.

Results

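Expression of the cytokine genes IL10, EBI3, IL6, LTA, LTB, TNF, IL12A, IL15 and IL16 was compared between a clone of Raji cells with lowered DLEU1 and a wild-type control clone. Raji is an established Burkitt lymphoma line that carries Epstein-Barr virus, and DLEU1 is a long non-coding RNA gene. The 9 genes were measured by 13 of the 54613 non-control probe sets of an Affymetrix HGU133_plus_2 array, those that the platform annotation pairs with the gene's symbol alone, out of 19775 genes so paired. The control group was 2 arrays of the control clone, and the other group was 2 arrays of a clone in which DLEU1 had been downregulated with TALENs, nucleases designed to cut a chosen DNA site. Both clones grew in RPMI medium with serum, and the labels give the same TALEN treatment text for all 4 arrays. Each genotype was 1 clone, so clone and genotype cannot be told apart, and nothing says that replicate arrays came from separate cultures, so p-values measure only the spread between arrays, which may be technical. The 9 genes were chosen by function, with the higher IL10 and EBI3 intensities of these same arrays already known, so their values, and whether each passed the threshold of the fit over all probe sets, are given as a description and not as a test of these genes.

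Cytokines are secreted or membrane-bound proteins by which immune cells signal to each other. IL10 restrains inflammation and also acts as a growth and differentiation factor for B cells. EBI3, named for its induction by Epstein-Barr virus in B cells, is the beta subunit of the cytokines IL27 and IL35, and IL12A is the alpha subunit of IL12 and, with EBI3, of IL35. TNF, LTA and LTB are neighbouring genes of the TNF superfamily in the major histocompatibility complex, and LTA and LTB form a membrane-bound heterotrimer that acts in lymphoid tissue. IL6 supports B-cell maturation into plasma cells, IL15 is a growth factor of NK and T cells, and IL16 is cut from a longer precursor and attracts CD4-positive cells. Transcription factors of the NF-kB family are known regulators of several of these genes.

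DLEU1 itself gave intensities of 1363.4 and 1023.8 in the control clone against 523.7 and 616.9 in the DLEU1-downregulated clone. The median intensity of an array was 18.4 to 22.6, but trimmed means ran from 131.4 in control replicate 2 to 196.8, so scale differed between arrays and results after quantile normalization are given where they differ. The median log2 change of all tested probe sets was 0.16 as deposited and 0.01 after quantile normalization. All 5 measured B-cell markers, such as MS4A1, CD79A and PAX5, lay more than 2 times above the array median on every array, and limma called 0 of them (0 higher and 4 lower after quantile normalization). Among 4 germinal centre markers 3 fell, and 4 after quantile normalization, against 5.74% and 20.6% of all tested genes. Of 5 fibroblast markers COL1A2 fell (log2 change -1.14, limma adjusted p = 0.00129). It gave 44.8 and 29.4 in the control clone against 16.7 and 1.4 in the other. These were 1.98 and 1.6 times the array median against 0.893 and 0.07 times. COL1A2 can thus have been bright enough to be tested only through its control readings. The summed intensity of the 5 markers was 193.2 and 202.2 in the control clone and 167.7 and 114.6 in the other. Rises, falls and passing the threshold refer throughout to a Benjamini-Hochberg adjusted p under 0.05 in limma. None of 7 T-cell, 4 NK-cell and 8 monocyte or macrophage markers lay more than 2 times above the array median on all arrays. Of the fibroblast markers COL1A1 alone did, at 90.2 and 121.2 in the control clone against 110.9 and 84.7 in the other. Summed T-cell markers read 63.3 to 80 on the control arrays and 67.4 to 77.8 on the others, summed NK-cell markers 63 to 66.8 and 66.9 to 80.7, and summed monocyte markers 63.7 to 88 and 71.7 to 83.

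Promoter sequences are shown for IL10 and EBI3, the genes the comparison leads with, as the 250 bases before the start site in RefSeq's GRCh38.p14. Of the 9 genes 8 were matched, with 13 start sites in all. Capitals mark matches to an NF-kB motif (GGG, 2 bases of any kind, T, 2 bases of any kind, CC) and to the AP-1 motif TGANTCA, both searched on both strands together with the STAT motif TTCNNNGAA.
IL10, chr1:206772495-206772744, minus strand: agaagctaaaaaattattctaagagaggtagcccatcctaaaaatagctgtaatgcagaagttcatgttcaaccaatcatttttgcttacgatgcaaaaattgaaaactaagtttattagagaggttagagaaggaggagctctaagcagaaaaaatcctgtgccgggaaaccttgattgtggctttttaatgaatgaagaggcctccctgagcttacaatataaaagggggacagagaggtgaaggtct
EBI3, chr19:4229273-4229522, plus strand: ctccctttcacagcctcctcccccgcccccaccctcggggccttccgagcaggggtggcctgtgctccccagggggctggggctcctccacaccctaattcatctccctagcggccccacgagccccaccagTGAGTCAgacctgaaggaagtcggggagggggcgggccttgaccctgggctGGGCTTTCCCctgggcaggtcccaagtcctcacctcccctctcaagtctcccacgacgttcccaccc
The EBI3 window held both an NF-kB match, at -67 to -58 from the start site, and an AP-1 match, at -118 to -112, and the printed IL10 window held none of the 3 motifs. IL10 has 3 start sites in the table, of which start site 2 has an AP-1 match at -69 to -63 and start site 3 has none. The NF-kB motif occurs in 19.7% of 35116 such windows, and TGANTCA and TTCNNNGAA each in 6.57%. Among the matched genes, TTCNNNGAA was found only at LTA and LTB, in the windows of both start sites of each. The windows of each gene overlap and share a match, so these are not independent finds. To set the other genes beside EBI3, 30 bases around their NF-kB matches are given, again with the match in capitals.
LTA, chr6:31572176-31572205, plus strand: ctaagccctgGGGGCTTCCCCgggccccag
TNF, chr6:31575454-31575483, plus strand: atgagctcatGGGTTTCTCCaccaaggaag
LTB, chr6:31582492-31582521, minus strand: aggggtgtgcGGAAAGTCCCagccaggtgt
IL6, chr7:22727117-22727146, plus strand: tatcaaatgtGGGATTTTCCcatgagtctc
The LTA stretch, from 1 of the gene's 2 start sites, holds 2 overlapping matches and the LTB match reads on the opposite strand. The NF-kB motif was thus found beside EBI3, LTA and TNF, which passed the threshold as higher in the DLEU1-downregulated clone. It was also found beside LTB and IL6, which did not. It was not found in any of the 3 windows of IL10, which passed as higher, or in those of IL12A and IL16. IL15, which passed as lower, was the gene without a matched window. A match is a description of the letters and not a site of binding.

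IL10 gave intensities of 18.7 and 22.1 in the control clone against 185.4 and 203.5 in the DLEU1-downregulated clone. Both DLEU1-downregulated arrays lay far above both control arrays, and every pairing of a DLEU1-downregulated with a control array gave between 8.39-fold and 10.9-fold. The log2 change was 2.53 ± 0.25 (SE, n = 2 arrays each), on the scale log2(intensity + 16), which understates changes of dim probe sets. This SE, here and below, is that of the limma fit, shared by probe sets of like brightness and not the gene's own spread. The IL10 change ranked 12 from the top among 32768 tested probe sets. In such bulk RNA, a change in how many cells make a transcript and a change in its amount per cell cannot be told apart. On the control arrays IL10 stood at 0.827 and 1.20 times the array median, and on the DLEU1-downregulated arrays at 9.91 and 10.2 times. An intensity within a factor of 2 of its array's median is called near the median here. No detection calls were used, so it is not known whether the control readings were above background. Set against the upper limit of the near-median range of the control arrays, 45.2 and 36.8, the DLEU1-downregulated readings were 4.10 to 5.53 times higher.

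EBI3 was well above the array median in both clones, unlike IL10. It gave intensities of 417.6 and 317 in the control clone against 1152.1 and 1389 in the DLEU1-downregulated clone. The groups did not overlap, and pairs of arrays differed by 2.76-fold to 4.38-fold. The control arrays stood at 18.5 and 17.2 times the array median and the DLEU1-downregulated arrays at 61.6 and 69.4 times. The mean was 367.3 ± 71.1 against 1271 ± 167 (SD, n = 2 arrays each). The log2 change was 1.75 ± 0.25 (SE), and 1.42 after quantile normalization, and it ranked 121 from the top among the tested probe sets.

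The subunits that pair with EBI3 or with IL12A were dim in both clones. IL12A gave intensities of 3.8 and 9.7 in the control clone against 1.7 and 1.3 in the DLEU1-downregulated clone, all under its arrays' medians. IL27, the alpha subunit that joins EBI3 in IL27, gave 2.2 and 2.7 against 2.6 and 1.7. IL12B, the larger subunit of IL12, gave 6.8 and 7 against 2.9 and 5.4. All 3 were too dim to be tested, which is no evidence that the transcripts were absent. The higher EBI3 signal was therefore not accompanied by a reading above the array median from either alpha subunit on any array.

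**Figure D1:**
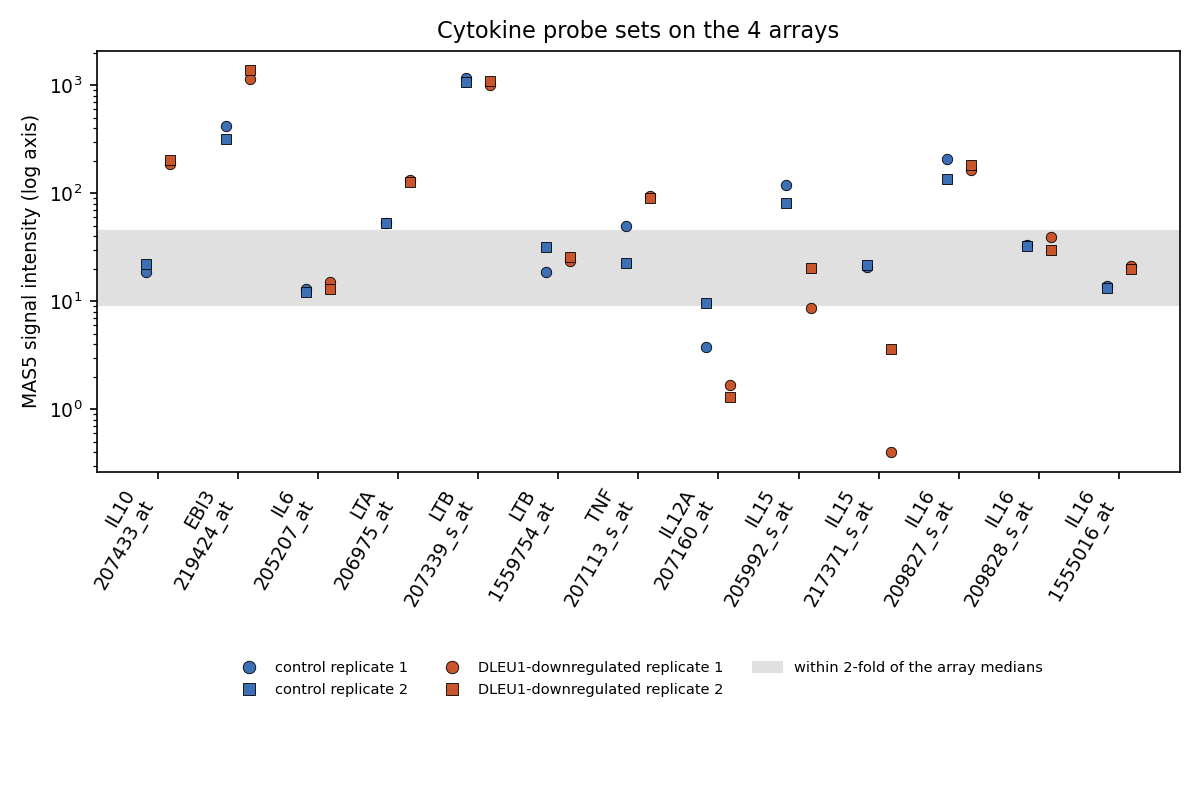
Intensity of the 13 cytokine probe sets on each array, on a log axis. Blue points are control and orange points DLEU1-downregulated arrays, circles replicate 1 and squares replicate 2, and the grey band runs from 9.2 to 45.2, the lowest and highest limits of a factor of 2 around the 4 array medians. IL10 lies in the band on the control arrays and above it on the DLEU1-downregulated arrays, and the brighter IL15 probe set lies above it on the control arrays only.

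Of the 3 TNF superfamily neighbours, LTA and TNF read higher in the DLEU1-downregulated clone and LTB did not. LTA, whose product is secreted alone or held at the membrane by LTB, gave intensities of 53.5 and 53.3 in the control clone against 132.4 and 127.9 in the DLEU1-downregulated clone. The groups did not overlap, and the fold was 2.39 to 2.48 for every pair of arrays. All 4 readings were above the near-median range, at 2.37 and 2.90 times the median in the control clone and 7.08 and 6.40 times in the other. The log2 change was 1.07 ± 0.25 (SE), and 0.88 after quantile normalization. It stayed at 1.05 and 1.10 without either DLEU1-downregulated array but no longer passed the threshold in those fits.

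TNF, an inflammatory cytokine, gave intensities of 49.8 and 22.8 in the control clone against 95.2 and 89.7 in the DLEU1-downregulated clone. Control replicate 1 lay at 2.20 times its array median and control replicate 2, at 1.24 times, was near it. The groups did not overlap, but the spread within the control clone made the fold between pairs of arrays vary from 1.80 to 4.18. The log2 change of 1.10 ± 0.26 (SE) became 0.72 without control replicate 2 and 1.48 without control replicate 1.

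LTB was measured by 2 probe sets, and the brighter gave intensities of 1176.9 and 1080.8 in the control clone against 1001.8 and 1092.2 in the DLEU1-downregulated clone. The groups overlapped, all 4 readings were 52.1 to 58.7 times the array median, and the log2 change was -0.11 ± 0.23 (SE). This depended on scale, since the change was -0.47 after quantile normalization and -0.43 with a common trimmed mean, and it passed the threshold as lower on both. The other LTB probe set gave 18.6 and 31.8 against 23.6 and 25.8, near the median on every array, with overlapping groups.

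IL6 gave intensities of 12.9 and 12.1 in the control clone against 15.1 and 13.1 in the DLEU1-downregulated clone. All readings were near and below the array median, at 0.571 to 0.807 times its value. The groups did not overlap, but the log2 change was only 0.08 ± 0.31 (SE), and it turned to -0.07 with a common trimmed mean. The difference in IL6 was thus within the error of the fit, which is not the spread of IL6's own readings. At such readings the presence of the transcript could not be told.

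IL15 was lower in the DLEU1-downregulated clone, opposite to IL10 and EBI3. Its brighter probe set gave intensities of 118.5 and 81.9 in the control clone against 8.7 and 20.2 in the DLEU1-downregulated clone. The control arrays stood at 5.24 and 4.45 times the array median, while the DLEU1-downregulated arrays stood at 0.465 and 1.01 times. Between pairs of arrays the control reading was 4.05 to 13.6 times the other. The log2 change was -1.94 ± 0.26 (SE) and ranked 87 from the bottom among the tested probe sets. The mean of the DLEU1-downregulated arrays, 14.4, lay under the added 16, and the size of the change depends on that constant, being -2.79 with 1 added and -1.06 with 64. Against the upper limit of the near-median range on the DLEU1-downregulated arrays, the control readings were 2.05 to 3.17 times higher.

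The dimmer IL15 probe set gave intensities of 20.6 and 21.9 in the control clone against 0.4 and 3.6 in the DLEU1-downregulated clone. It was near the median in the control clone and below that range in the other, with no overlap, and was too dim to be tested. Both probe sets of the gene were thus lower on both DLEU1-downregulated arrays.

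IL16 was measured by 3 probe sets, and none passed the threshold in any setting. The brightest gave intensities of 205.8 and 135.7 in the control clone against 165.5 and 181 in the DLEU1-downregulated clone, so that the DLEU1-downregulated readings fell between the control readings. Its log2 change of 0.04 ± 0.26 (SE) turned to -0.23 after quantile normalization. The middle one in brightness gave 33.1 and 32.3 against 39.8 and 29.6, with overlapping groups and 1 array, at 2.13 times its median, just outside the near-median range. The dimmest gave 14 and 13.2 against 21.3 and 19.8, near the median throughout. Its groups did not overlap, with a log2 change of 0.30 ± 0.30 (SE).

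In all, 5 of the 13 probe sets were near or below the array median on all 4 arrays, those of IL6 and IL12A, the dimmer one of LTB, the dimmer one of IL15 and the dimmest of IL16. Another 4 were above the near-median range on all 4 arrays, those of EBI3 and LTA and the brightest ones of LTB and IL16. The remaining 4, those of IL10 and TNF, the brighter one of IL15 and the middle one of IL16, were above it on some arrays only. Over all 54613 probe sets 56.5% were near or below the median on all arrays, 34.6% above on all arrays and 8.93% mixed. The change from near or below the median on both control arrays to above it on both others, shown by IL10, was met by 1.87% of all probe sets, and the opposite change, shown by IL15, by 0.952%.

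Of the 13 probe sets 11 were bright enough to be tested. In the limma fit 4 passed the threshold of adjusted p 0.05 as higher (IL10, EBI3, LTA and TNF) and 1 as lower (IL15). Of all 32768 tested probe sets 22.3% passed, 17.2% as higher and 5.11% as lower. After quantile normalization 4 were higher and 2 lower, LTB being added, against 33.8% of all tested probe sets in either direction, 17% higher and 16.7% lower. The median log2 change of the 11 was 0.08, against 0.16 for all tested probe sets, and 0.15 against 0.01 after quantile normalization. The groups did not overlap in 9 of the 13 probe sets, 6 higher and 3 lower, against 49.7% of all probe sets, 29.8% higher and 19.9% lower. Because the set was chosen with this contrast in view, nothing is read from these counts.

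**Figure D2:**
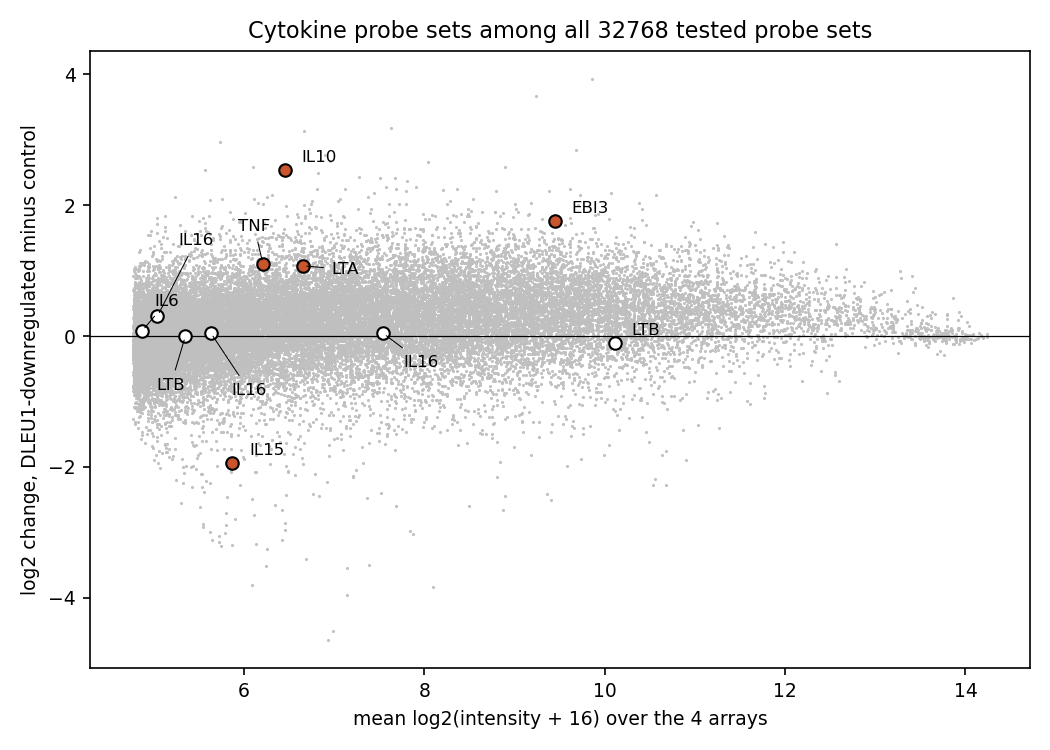
Log2 change (DLEU1-downregulated minus control) against mean log2(intensity + 16) for all 32768 tested probe sets in grey, with the 11 tested cytokine probe sets as circles, filled where they passed the threshold. IL10 and EBI3 lie near the upper edge of the cloud and IL15 near the lower edge, while IL6, LTB and IL16 lie near 0.

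**Figure D3:**
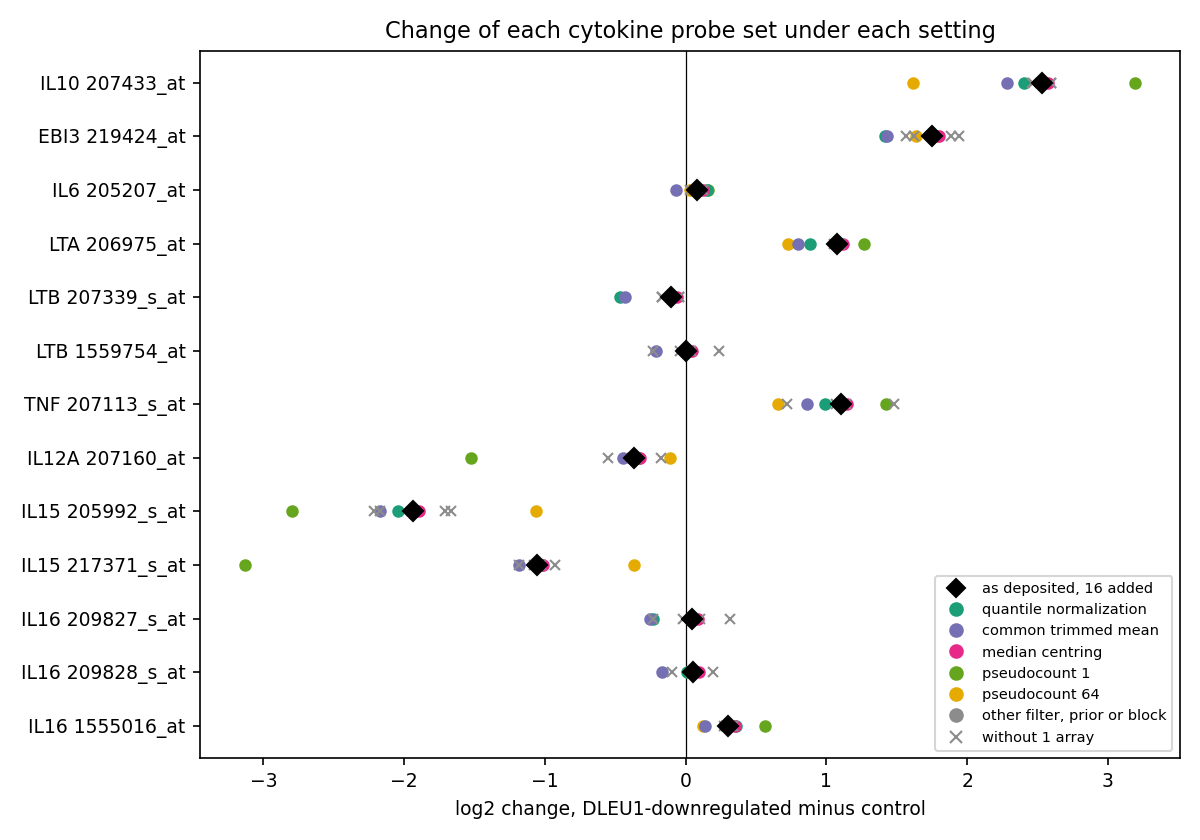
Log2 change of each of the 13 probe sets as deposited (black diamonds) and under 13 other settings (coloured points and grey circles for scaling, added constant, filter, prior or block, crosses without 1 array). IL10 stays between 1.61 and 3.19 and EBI3 between 1.42 and 1.94, whereas IL6, the dimmer LTB probe set and 2 of the 3 IL16 probe sets fall on both sides of 0.

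Receptors for these cytokines were examined as a list of 16 genes, of which 14 were bright enough to be tested. In limma 3 rose and 0 fell (4 and 0 at unadjusted p under 0.05), which is 21.4% higher, against 20.3% higher and 5.74% lower (26.1% together) among all genes. After quantile normalization 3 rose and 3 fell, against 20.6% each way (41.2% together). The list's median log2 change was 0.37, against 0.19 for all tested genes. TNFRSF1B, the TNF receptor found mainly on immune cells, gave intensities of 64.9 and 76.9 in the control clone against 184.7 and 189 in the DLEU1-downregulated clone, a log2 change of 1.23 (limma adjusted p = 3.89e-05). TNFRSF14, which binds LTA among other ligands, gave 96.1 and 88.8 against 205.2 and 221.8, a log2 change of 1.08 (limma adjusted p = 4.07e-04). The groups did not overlap for either receptor, but TNFRSF1B did not pass without DLEU1-downregulated replicate 2 (limma adjusted p = 0.0505). TNFRSF14 did not pass without replicate 1 or replicate 2 of that clone (limma adjusted p = 0.0684 and 0.143) or with the replicate number as a block (0.0627).

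IL27RA, a receptor chain for the EBI3-containing cytokine IL27, gave intensities of 31.3 and 4.6 in the control clone against 42.2 and 58.1 in the DLEU1-downregulated clone. Its log2 change was 1.07 (limma adjusted p = 0.00118), but control replicate 2 set much of it, and without that array the change was 0.47. Without replicate 2 of the other clone the change was 0.90. IL27RA did not pass with a common trimmed mean (limma adjusted p = 0.0739) or with no filter (limma adjusted p = 0.118). With the filter at the 60th percentile it was not tested. A second IL27RA probe set had a log2 change of 0.64 (limma adjusted p = 0.0909). With 1 array left out the receptor count was 5 (control replicate 1), 2 (control replicate 2), 2 (replicate 1 of the other clone) and, with limma, 0 (its replicate 2; 3 at unadjusted p under 0.05).

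The IL10 receptor chains did not rise with IL10. IL10RA, the ligand-binding chain, gave intensities of 398.1 and 326.8 in the control clone against 279.8 and 356.1 in the DLEU1-downregulated clone, with overlapping groups and a log2 change of -0.18 (limma adjusted p = 0.673). IL10RB, the chain shared with related cytokine receptors, gave 123.9 and 82.1 against 76.9 and 78.7, a log2 change of -0.32 (limma adjusted p = 0.396). Both passed as lower after quantile normalization, IL10RA by -0.50 (limma adjusted p = 0.00276) and IL10RB by -0.53 (limma adjusted p = 0.0282). IL6ST, the signalling chain of the IL6 and IL27 receptors, named after its value was seen, was the other receptor that passed as lower on that scale (-0.37, limma adjusted p = 0.0442).

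**Figure D4:**
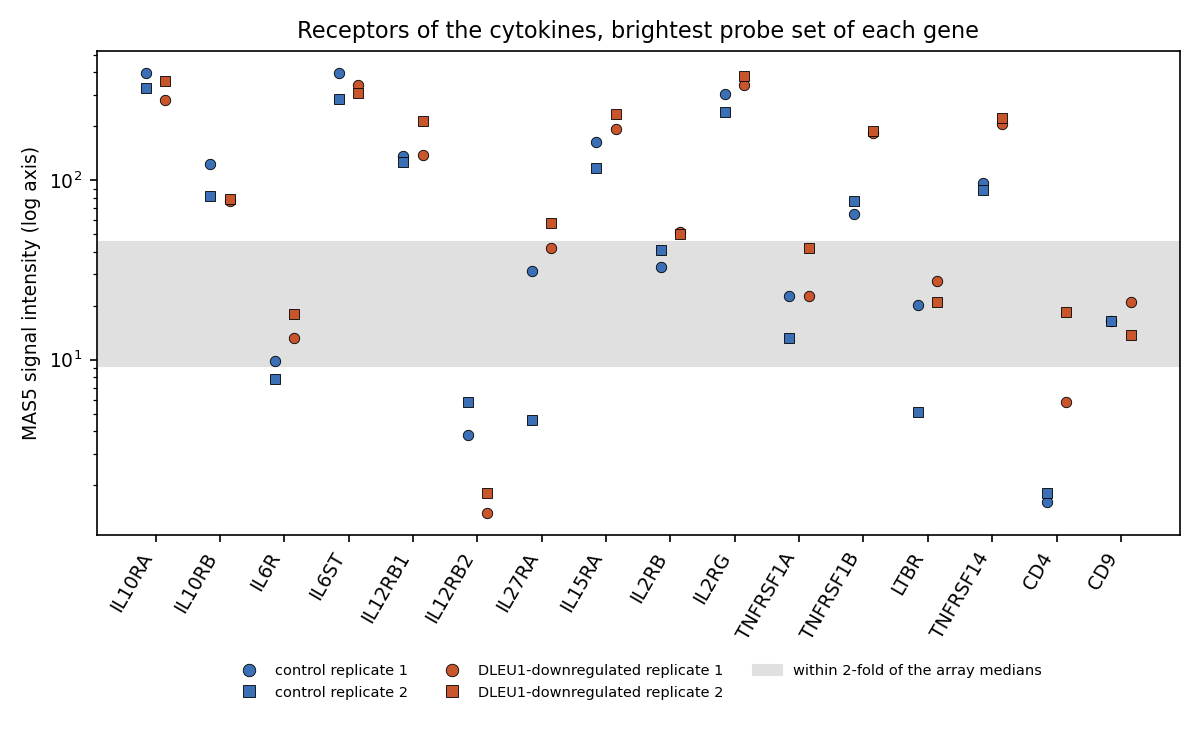
Intensity of the 16 receptor genes on each array, on a log axis, with the brightest probe set of each gene, the same symbols as in the plot of cytokine probe sets and the same grey band from 9.2 to 45.2. TNFRSF1B and TNFRSF14 lie higher on both DLEU1-downregulated arrays, while the points of IL10RA overlap between the clones.

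A list of 47 further cytokine and TNF superfamily ligand genes held 42 with a probe set of their own, of which 24 were too dim to be tested, among them IL2, IL4, IFNG and IL21. Of the 18 tested, 3 rose and 6 fell in limma, or 16.7% and 33.3%, against 20.3% and 5.74% of all genes. With 1 added to intensities, 3 rose and 3 fell of 15 tested. With the filter at the 60th percentile 3 rose and 1 fell of 5, and with no filter 1 rose and 4 fell of 42. IFNB1, TNFSF8 and CXCL8, among those that fell, were near the array median on the control arrays and below that range on the others. Such dim genes can pass a filter on mean brightness through their control readings, so no excess of falls is read from the 33.3%. After quantile normalization 2 rose and 5 fell, against 20.6% and 20.6%. The list's median log2 change was -0.07, against 0.19 for all tested genes. The count of 9 became 5 without control replicate 1 and 3 without each of the other arrays in turn.

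TGFB1, a cytokine that restrains immune cells and drives matrix production, gave intensities of 73.9 and 75.2 in the control clone against 231.6 and 276.9 in the DLEU1-downregulated clone. The groups stood far apart, with a log2 change of 1.57 (limma adjusted p = 7e-08), and a dimmer TGFB1 probe set had a change of 0.65 (limma adjusted p = 0.0754). TNFSF4 and CD70, ligands of receptors on T cells, were the other genes of this list that rose (log2 changes 0.79 and 0.59), and both are named after their values were seen. CD70 did not pass after quantile normalization (limma adjusted p = 0.0863).

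IFNB1, a type I interferon, gave intensities of 45.2 and 29.4 in the control clone against 1 and 0.9 in the DLEU1-downregulated clone, a log2 change of -1.64 (limma adjusted p = 4.36e-06). The control readings lay in the near-median range and the others far below it, so the size of this difference rests on readings of dim probe sets, and without either control array IFNB1 was too dim to be tested. IL7, a growth factor of early lymphocytes, gave 55.3 and 41.1 against 7.7 and 11.7, a log2 change of -1.32 (limma adjusted p = 7.02e-05). The change was -1.16 and -1.48 without control replicate 1 or 2, and -1.20 and -1.43 without replicate 1 or 2 of the other clone. IL7 was thus, like IL15, above the median range on both control arrays and lower on both others. It too can have passed the filter on mean brightness through its control readings. With the filter at the 60th percentile IL7 was not tested.

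A list of 52 regulators of these genes (transcription factors, signal transducers, proteases that release cytokines and proteins that bind cytokine mRNAs) had 44 tested members. In limma 15 rose and 0 fell (20 and 1 at unadjusted p under 0.05), or 34.1% higher, against 20.3% and 5.74% of all genes. After quantile normalization 15 rose and 10 fell, against 20.6% of all genes each way. The list's median log2 change was 0.32, against 0.19 for all tested genes, and 0.13 against -0.01 after quantile normalization. With 1 array left out the count was 18 (control replicate 1), 7 (control replicate 2), 2 (replicate 1 of the other clone) and 1 (its replicate 2).

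NFKB2, the precursor of an NF-kB subunit of the non-canonical pathway, gave intensities of 122.8 and 72.2 in the control clone against 265.6 and 284.2 in the DLEU1-downregulated clone, a log2 change of 1.39 (limma adjusted p = 2.76e-06) that passed without each array in turn. Another tested NFKB2 probe set had a change of 0.53 (limma adjusted p = 0.120). ELAVL1, a protein that stabilises AU-rich mRNAs, including those of cytokines, gave 2094.5 and 1764.7 against 3685 and 4014.7, a log2 change of 0.99 (limma adjusted p = 1.8e-05). NFKB1, the precursor of an NF-kB subunit of the canonical pathway, gave 581.1 and 502.7 against 1010.2 and 1287.2, a log2 change of 1.06 (limma adjusted p = 2.54e-04). ELAVL1 and NFKB1 passed on both scales but not without either DLEU1-downregulated array. With the replicate number as a block neither passed (limma adjusted p = 0.0977 and 0.152). Of 4 tested ELAVL1 probe sets 3 passed, and the other had a log2 change of 0.64 (limma adjusted p = 0.0554).

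The genes whose profile over the 4 arrays was most like that of IL10 were PYGB, FCRL4, DOCK4, IQSEC1 and CCL5, at distances of 0.132 to 0.322. The distance is the Euclidean distance between log2(intensity + 16) profiles centred on their own means, over 12377 other genes. Those nearest to EBI3 were LINC00158, MLLT11, RFC2, LPCAT1 and FAM217B, at distances of 0.0487 to 0.0923. PYGB, the nearest to IL10, gave intensities of 10.6 and 13.8 in the control clone against 154.8 and 149 in the DLEU1-downregulated clone. LINC00158, the nearest to EBI3, gave 490.4 and 357.3 against 1292.5 and 1578.6. With 4 arrays in 2 groups, nearness mostly reflects a like difference between the clones.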

How the data were processed

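The authors deposited 1 table of linear signal intensities from 4 arrays, made with MAS5 per the submitters' processing notes, with target intensity and detection calls not given in the sources used here. Values were turned into log2(intensity + 16). The 62 control probe sets were left out, and probe sets under the 40th percentile of mean log2 value were not tested, leaving 32768. The clones were compared in limma 3.58.1 (R 4.3.3; lmFit, eBayes with an intensity trend) with no covariate. P-values were adjusted by Benjamini-Hochberg over all tested probe sets, and 0.05 was the threshold. As deposited, the prior degrees of freedom were infinite, and they were 6.75 after quantile normalization. The SEs and the very small p-values therefore rest on a spread shared by probe sets of like brightness. An exact permutation test of 4 arrays cannot go below p = 0.333. The number of arrays limits the precision.

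Symbols came from the platform annotation of 2016, updated through RefSeq's GRCh38.p14 table (41037 of 41091 probe sets with 1 symbol matched). For listed genes the brightest probe set was used, which gave 13284 tested genes. Named outside the 9 genes were the 3 smallest p-values past the threshold in each list, IL27, IL12B, IL10RA, IL10RB and the 5 nearest profiles, and others are marked. Members and lists were chosen with earlier results of these data known. Alternatives were other pseudocounts, filters and scalings, eBayes without a trend, the replicate number as a term, and leaving out each array. On simulated data whose spread depended only on brightness the fit recovered all 4-fold changes and most, not all, 2-fold changes. That simulation gave no probe set a spread of its own, so it cannot show how the fit performs where such spreads differ.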

Additional observations from a re-analysis of the deposited data

How the results depend on the processing

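Of the 9 cytokine genes, IL10, EBI3, TNF and the brighter IL15 probe set had log2 changes over the 13 alternatives of 1.61 to 3.19, 1.42 to 1.94, 0.65 to 1.48 and -2.79 to -1.06, a description of the arrays that chose the set and not support for it. The count of cytokine probe sets past the threshold was 4 to 6 in every setting, 4 to 5 without each array in turn. Signs turned in 4 of the probe sets near 0. IL6 was -0.069 with a common trimmed mean. The dimmer LTB probe set was -0.0043 with 64 added, -0.011 after quantile normalization, -0.21 with a common trimmed mean and from -0.23 to 0.23 without 1 array. The brightest IL16 probe set was -0.23 after quantile normalization, -0.25 with a common trimmed mean and from -0.23 to 0.32 without 1 array, and the middle one was -0.17 with a common trimmed mean and from -0.095 to 0.20 without 1 array. Of all probe sets 7293 passed (5620 higher, 1673 lower), against 4395 with no filter, 11072 after quantile normalization (5584 and 5488), 12902 (10420 and 2482) once arrays were centred on their medians, 11394 (5114 and 6280) with a common trimmed mean and 1060 to 8463 without 1 array. The count of other cytokine genes was 5 with no filter, 4 with the filter at the 60th percentile (5 tested) and 3 to 5 without 1 array. That of receptors was 6 after quantile normalization (3 and 3), 5 for median centring (5 and 0), 5 for the trimmed mean (2 and 3) and 0 to 5 without 1 array. That of regulators was 25 after quantile normalization (15 and 10), 23 for median centring (22 and 1), 24 for the trimmed mean (15 and 9) and 1 to 18 without 1 array. With the replicate number as a block, 1901 probe sets, 5 other cytokine genes, 2 receptors and 1 regulator passed, and the cytokine count stayed at 5. Nothing showed that the numbers pair the arrays (correlation of deviations -0.053 over 32768 probe sets). The lone array of a fit without 1 array is assumed to vary like the other group. The cause of these shifts was not tested. Without detection calls, readings near the array median cannot be told from background.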

Other observations

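The protein-coding genes next to each cytokine gene, 3 on each side in RefSeq's order, were looked at after the data had been seen. Beside IL10, 5 neighbours were tested, among them its relatives IL19 and IL24, and limma called 0 (0 at unadjusted p under 0.05, 0 after quantile normalization), with log2 changes from -0.57 to 0.42. Beside EBI3, 4 were tested and limma called 0 (0 at unadjusted p under 0.05, 0 after quantile normalization), with log2 changes from 0.10 to 0.52. Beside LTA and TNF the nearest gene on the other side, NFKBIL1, had a log2 change of -0.11 and did not pass, while ATP6V1G2, a proton pump subunit 2 places before LTA, fell by 1.68 (-1.81 after quantile normalization). Of 5 tested neighbours of IL15, 1 passed (3 at unadjusted p under 0.05, 2 after quantile normalization). TBC1D9 rose by 0.80, and GAB1, at -0.53, passed as lower after quantile normalization (-0.81). Of the tested neighbours, 2 of 4 rose beside IL6 and 1 of 3 beside IL16. Among all tested genes 20.3% passed as higher and 5.74% as lower, and 41.2% passed in either direction after quantile normalization. The 1 tested neighbour of IL12A, IFT80, had a log2 change of -0.34 and passed as lower after quantile normalization (-0.68).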
